A study of Homo sapiens with 6 samples.

Results

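The V-ATPase is the proton pump that acidifies lysosomes, endosomes, the Golgi and secretory vesicles. Its membrane sector, V0, carries protons through a rotating ring of proteolipid subunits, while its cytosolic sector, V1, hydrolyses ATP and turns the ring. The accessory proteins ATP6AP1 and ATP6AP2 are bound to V0 and take part in assembling it. In lysosomes the pump keeps hydrolases active, supports iron release from endocytosed carriers, and works with the Ragulator complex in amino acid signalling to mTORC1.

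The genes described here are 9 genes of V0 and its accessory proteins, chosen by gene name: ATP6V0C, ATP6V0B, ATP6V0A1, ATP6V0A2, ATP6V0D1, ATP6V0E1, ATP6V0E2, ATP6AP1 and ATP6AP2. They are 9 of the 62710 genes in the deposited table, and all 9 were among the 16753 genes tested. The topic was selected on the values of ATP6V0C, which was high in sh-IGF2BP3 1 and 2 and in no other library, so its values are given as a description with no test. The question was whether the other 8 genes share that pattern.

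The libraries came from HCT116, an established human colon cancer cell line, sequenced as 6 libraries. In 3 of them (sh-NC) the cells expressed a scrambled shRNA as control, and in the other 3 (sh-IGF2BP3) the shRNA was directed at IGF2BP3, an mRNA-binding protein. The constructs were delivered by lentivirus and stable lines were selected with puromycin, and no further treatment is named for either group of libraries. The labels do not say whether the 3 libraries of a group came from separate cultures, so the p-values measure only the spread between these libraries. In bulk RNA, fewer cells with a transcript and less of it per cell cannot be told apart.

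The libraries held 16146718 to 23576469 counts on genes. IGF2BP3 itself was at 90.3, 84.1 and 70.3 CPM (each library's counts scaled to a common total, after TMM normalization) in sh-NC 1, 2 and 3, and at 60.2, 52.3 and 55.8 CPM in sh-IGF2BP3 1, 2 and 3. The groups did not overlap, with a log2 fold change of −0.54 ± 0.18 (SE, n = 3 each; edgeR adjusted p = 0.126), so the shRNA target itself did not pass the test. With each library's trends with GC content and gene length removed it was −0.22 ± 0.19 (edgeR adjusted p = 0.680). The study reports lower IGF2BP3 in its HCT116 knockdown line by qPCR and by Western blot. Of 5 epithelial marker genes all were detected in every library (92.4 to 2583 CPM per gene). Of 6 markers of leukocytes, endothelium and fibroblasts, 1 was at 0 in all libraries and 3 stayed under 1 CPM in every library, while PECAM1 reached 1.64 CPM and COL1A1 was at 28.0 to 58.5 CPM.

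ATP6V0C encodes the proteolipid c, of which most of the proton-carrying ring is built. The deposited table places it on the plus strand of chromosome 16, at chr16:2513952-2520218 of GRCh38. Before its values are given, its exons need a word, because they are also exons of other annotated genes. In GENCODE 29, on the same build, its transcript has 3 exons of 313, 184 and 678 bases. ENSG00000260272 starts upstream and runs through the second and the last of them, which are identical in both genes (862 bases). ENSG00000259784 starts inside the first exon, shares 218 bases of it, and runs on downstream. In all, 1080 of the 1175 bases of the ATP6V0C transcript (91.9%) lie in an exon of one or the other gene on the same strand. In GENCODE 29 this transcript begins at chr16:2513870, before the deposited start, so the annotations differ. The bases before the deposited start are not shared, as ENSG00000259784 begins at chr16:2513965. Within the deposited span the shared part of this transcript is therefore larger than 91.9%.

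The sequences across the exon junctions show where the 3 genes can be told apart in RNA. Each line holds the last 30 bases of one exon and the first 30 of the next, read 5′ to 3′ on the plus strand of GRCh38, and all of these bases are coding. Capitals mark bases that lie in an exon of ATP6V0C, and lower case marks bases that do not. The exon ends are chr16:2514153-2514182 for ATP6V0C and ENSG00000259784 and chr16:2497084-2497113 for ENSG00000260272. The following exons begin at chr16:2519218-2519247 for ATP6V0C and ENSG00000260272 and at chr16:2520984-2521013 for ENSG00000259784.
ATP6V0C: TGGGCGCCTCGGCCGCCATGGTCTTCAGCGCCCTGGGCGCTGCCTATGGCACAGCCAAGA
ENSG00000260272: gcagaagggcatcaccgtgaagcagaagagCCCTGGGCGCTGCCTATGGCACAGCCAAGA
ENSG00000259784: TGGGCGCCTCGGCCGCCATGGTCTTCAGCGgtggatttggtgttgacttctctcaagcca

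Only a read that crosses the first junction, or that reaches outside the shared exons, belongs to 1 of these genes alone. How reads that fit more than one gene were counted is not given in the sources used here, and the part of this overlap in the counts of ATP6V0C was not tested.

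**Figure D1:**
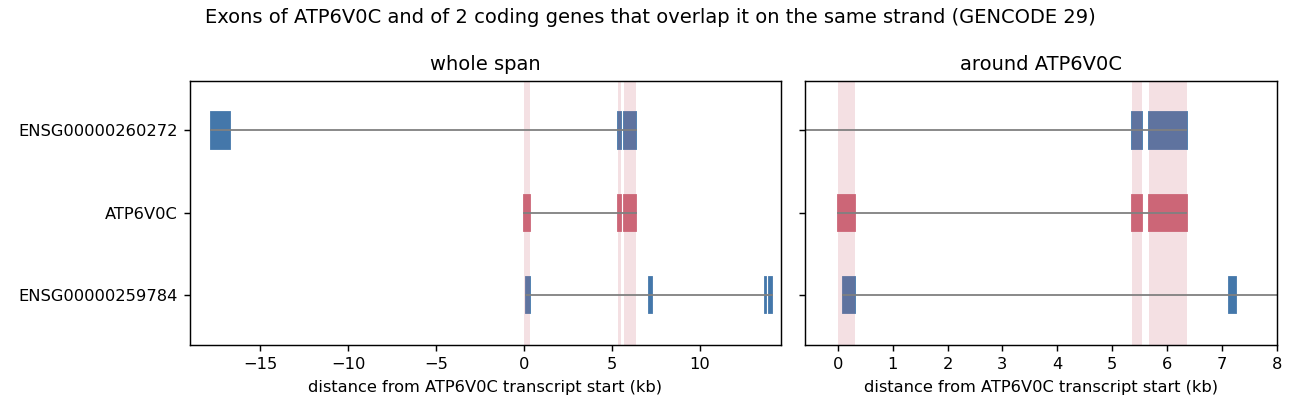
Exons (boxes) of ATP6V0C and of 2 coding genes that overlap it on the same strand, against the distance in kb from the start of the ATP6V0C transcript, for the whole span (left) and around ATP6V0C (right). Shading marks the 3 exons of ATP6V0C. The second and the last are also exons of ENSG00000260272, and most of the first is also an exon of ENSG00000259784.

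ATP6V0C had 44, 6 and 4 counts in sh-NC 1, 2 and 3, and 723, 568 and 16 counts in sh-IGF2BP3 1, 2 and 3. As normalized values these were 2.48, 0.248 and 0.204 CPM against 41.3, 37.1 and 0.909 CPM. Thus sh-IGF2BP3 1 and 2 were high and alike, and the lower of the pair stood 15.0-fold above the highest control library. In contrast, sh-IGF2BP3 3 was at 0.37 of that control library, so the groups overlapped. The fitted log2 fold change was 4.82 ± 0.99 (SE, n = 3 each), a mean over libraries that did not behave alike.

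The sense genes around ATP6V0C had counts far below those of ATP6V0C in sh-IGF2BP3 1 and 2. ENSG00000260272 had 1, 0 and 0 counts in sh-NC and 2, 1 and 0 counts in sh-IGF2BP3 libraries. ENSG00000259784 had 0, 0 and 0 counts against 2, 1 and 0 counts. At these few counts the order was that of ATP6V0C. Of their exon bases 99.9% and 100% also lie in exons of other genes. Their counts therefore depend on how shared reads were counted and do not show the level of their RNA. ENSG00000279520, a single-exon gene within an intron of ATP6V0C, shares no exon base with another sense gene. It had 64, 47 and 30 counts in sh-NC and 70, 30 and 46 counts in sh-IGF2BP3 libraries. Adding the counts of these 3 genes to those of ATP6V0C gave 109, 53 and 34 counts against 797, 600 and 62 counts, with a log2 fold change of 3.15. Adding the pseudogenes of ATP6V0C as well gave 116, 62 and 46 counts against 804, 614 and 78 counts, with a log2 fold change of 2.99. In both sums sh-IGF2BP3 1 and 2 stayed above every control library and sh-IGF2BP3 3 did not. Reads that were counted for no gene would be missing from these sums as well.

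The pseudogenes themselves were low in all libraries. ATP6V0CP1 had 4, 3 and 4 counts in sh-NC and 2, 11 and 8 counts in sh-IGF2BP3 libraries. ATP6V0CP4 had 3, 6 and 8 counts against 5, 3 and 8 counts. ATP6V0E1P1, a copy of another V0 gene, had 1, 8 and 1 counts against 0, 2 and 0 counts. These genes are near copies of their parents, so the split of reads between them is uncertain.

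The coding neighbours of ATP6V0C were named after their values were seen. The first exon of ENSG00000260272 lies within the span of TBC1D24. The exons of ENSG00000259784 after its first lie within the span of AMDHD2. Of the exon bases of TBC1D24 and AMDHD2, 8.84% and 8.66% also lie in an exon of another gene on the same strand. The part of this overlap in their counts was not tested. TBC1D24, upstream, overlapped between the groups, at 50.5, 37.1 and 39.1 CPM in sh-NC and 45.6, 45.6 and 42.3 CPM in sh-IGF2BP3 libraries. AMDHD2, an enzyme of amino sugar metabolism that begins just downstream, was at 8.69, 7.97 and 7.46 CPM in sh-NC and 24.5, 20.4 and 13.1 CPM in sh-IGF2BP3 libraries. All 3 sh-IGF2BP3 values of AMDHD2 lay above the controls, with a log2 fold change of 1.27 ± 0.26 (edgeR adjusted p = 0.103). By edgeR it was not called, while DESeq2 called it higher (adjusted p = 0.00227), as it did 4.21% of the genes it tested. With the trends with GC content and gene length removed the log2 fold change of AMDHD2 was 0.69 ± 0.18 (edgeR adjusted p = 0.415).

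By a strict cut, none of the other 8 genes was high in sh-IGF2BP3 1 and 2 alone. In the pattern of ATP6V0C both of these libraries exceed every sh-NC library and sh-IGF2BP3 3 does not. That pattern was found in 0 of the 8 genes and in 10.7% of all genes tested, so 0 of 8 is not far from the background. In ATP6V0B and ATP6V0E2 sh-IGF2BP3 3 exceeded the highest control only 1.02-fold and 1.05-fold, so the 0 rests on that cut. By edgeR's quasi-likelihood test, with an adjusted p under 0.05 and a change over 1.5-fold, 0 of the 8 genes were called, in a comparison in which 0% of all genes tested were called. At an unadjusted p under 0.05, 2 of the 8 were higher and 0 lower, against a background of 13.6% of genes higher and 8.54% lower. DESeq2 called 0 of the 8, while it called 4.21% of the genes it tested higher and 1.02% lower. Their median log2 fold change was 0.17 (range −0.29 to 0.66), beside −0.01 over all genes tested, and 5 of 8 were above 0, beside 49% of all genes.

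**Figure D2:**
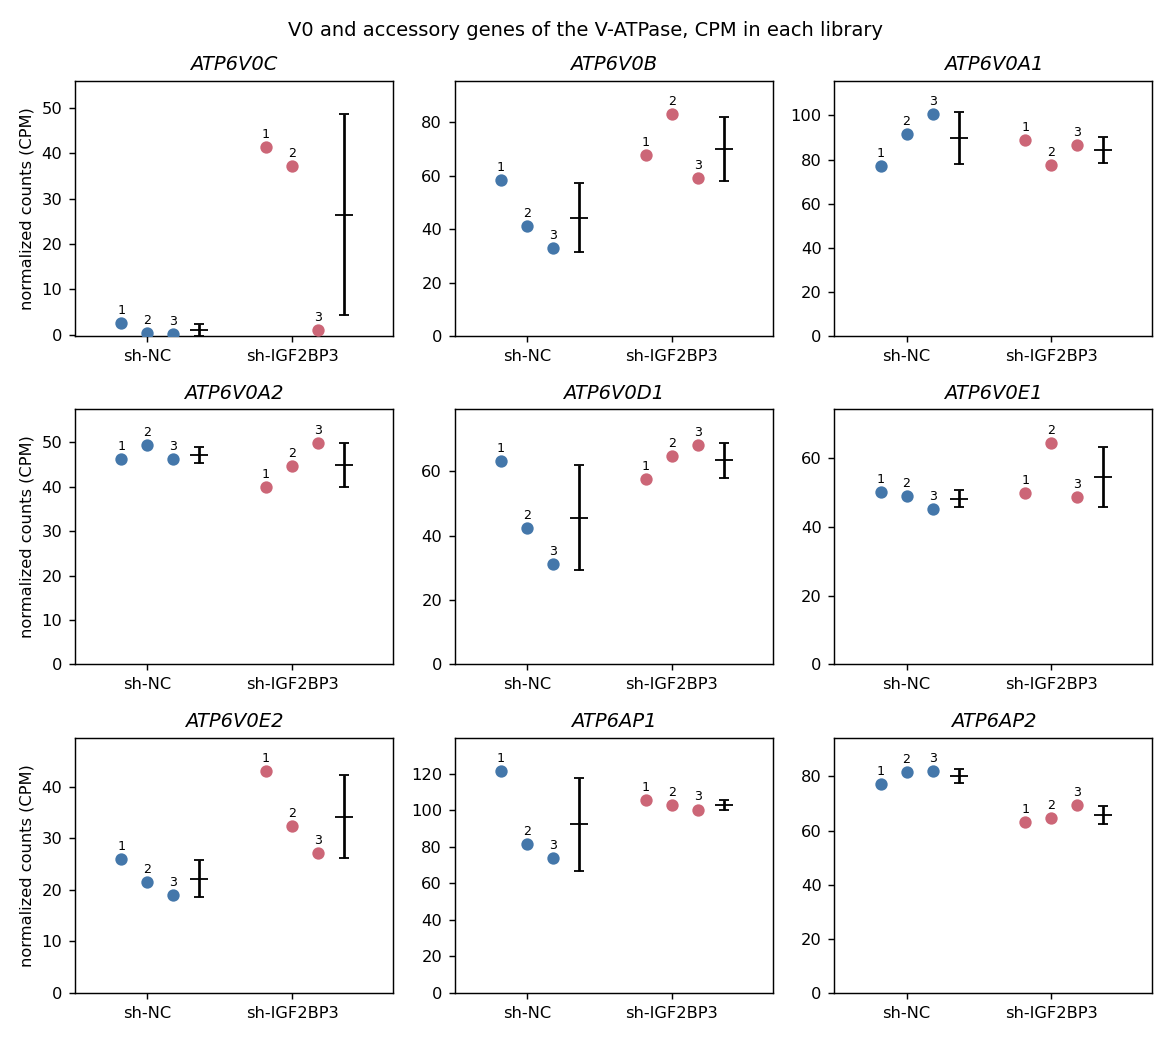
CPM of the 9 V0 and accessory genes in each library (numbered points, 3 sh-NC in blue and 3 sh-IGF2BP3 in red), with the mean and SD of each group (n = 3) as a black bar beside them. Only the ATP6V0C panel shows sh-IGF2BP3 1 and 2 far above all other libraries, at 41.3 and 37.1 CPM.

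The other proteolipid of the ring, c″, is encoded by ATP6V0B (chr1:43974487-43978295). It was at 58.4, 41.1 and 33.1 CPM in sh-NC and 67.9, 83.0 and 59.3 CPM in sh-IGF2BP3 libraries. All 3 sh-IGF2BP3 values were above the controls, although sh-IGF2BP3 3 exceeded sh-NC 1 by little. The mean was 1.58-fold higher, with a log2 fold change of 0.66 ± 0.22 that did not pass the test (edgeR adjusted p = 0.126; DESeq2 adjusted p = 0.0790). The counts of these proteolipid genes differed in pattern: ATP6V0B was at 33.1 CPM or more in every library, while ATP6V0C was at 2.48 CPM or less in 4 of them. However, 72.1% of the exon bases of ATP6V0C and 0% of those of ATP6V0B were shared with another sense gene. How shared reads were counted is not given, so these levels may not compare the RNA of the 2 genes.

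Subunit a forms the path by which protons reach and leave the ring, and its isoforms direct the pump to different membranes. ATP6V0A1 (chr17:42458844-42522582) was at 77.0, 91.8 and 100.5 CPM in sh-NC and 88.6, 77.4 and 86.7 CPM in sh-IGF2BP3 libraries. ATP6V0A2 (chr12:123712353-123761755), the isoform known from the Golgi and endosomes, was at 46.1, 49.3 and 46.2 CPM against 39.9, 44.7 and 49.9 CPM. The groups overlapped for both, with log2 fold changes of −0.09 ± 0.18 (edgeR adjusted p = 0.790) and −0.08 ± 0.18 (edgeR adjusted p = 0.831). The other isoforms were not among the 9 genes. TCIRG1, the a3 isoform of lysosomes and osteoclasts, was at 31.8, 26.4 and 36.7 CPM against 46.1, 38.8 and 34.8 CPM, where sh-IGF2BP3 1 and 2 exceeded the highest control by little (1.06-fold for the lower), and ATP6V0A4, known from kidney, was under 1 CPM in every library.

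ATP6V0D1 (chr16:67438014-67481181, minus strand) encodes the d subunit, which couples the ring to the central stalk of V1. It was at 63.3, 42.3 and 31.1 CPM in sh-NC and 57.5, 64.6 and 68.1 CPM in sh-IGF2BP3 libraries. The control libraries spread widely, and sh-NC 1 lay within the range of the sh-IGF2BP3 libraries. The log2 fold change was 0.48 ± 0.23 and did not pass the test (edgeR adjusted p = 0.238). Its tissue-restricted partner ATP6V0D2 had counts in 1 library only and was not tested.

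The small e subunits are hydrophobic proteins of the membrane sector. ATP6V0E1 (chr5:172983771-173035445) was at 50.1, 49.1 and 45.3 CPM in sh-NC and 50.0, 64.5 and 48.8 CPM in sh-IGF2BP3 libraries, where sh-IGF2BP3 2 alone was high. Its log2 fold change was 0.18 ± 0.19 (edgeR adjusted p = 0.599). ATP6V0E2 (chr7:149872968-149891204) was at 26.0, 21.4 and 19.0 CPM in sh-NC and 43.0, 32.3 and 27.2 CPM in sh-IGF2BP3 libraries. These groups did not overlap, but the lowest sh-IGF2BP3 library was near the highest control. The mean was 1.54-fold higher, with a log2 fold change of 0.63 ± 0.22 that did not pass the test (edgeR adjusted p = 0.138; DESeq2 adjusted p = 0.0857). The antisense gene ATP6V0E2-AS1 held 14 to 29 counts a library, and without stated strand its reads cannot be told apart from those of ATP6V0E2 where they overlap.

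Of the accessory proteins, ATP6AP1 (chrX:154428633-154436516) was at 121.4, 81.8 and 73.7 CPM in sh-NC and 105.9, 102.7 and 100.5 CPM in sh-IGF2BP3 libraries. The sh-IGF2BP3 values lay close together inside the range of the controls, with a log2 fold change of 0.16 ± 0.20 (edgeR adjusted p = 0.668). ATP6AP2 (chrX:40579372-40606848), also known as the prorenin receptor, was at 77.0, 81.5 and 81.9 CPM in sh-NC and 63.0, 64.6 and 69.5 CPM in sh-IGF2BP3 libraries. It was the only one of the 9 genes with all sh-IGF2BP3 libraries below the controls. The log2 fold change was −0.29 ± 0.17 and did not pass the test (edgeR adjusted p = 0.335).

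In total, 2 of the 8 genes (ATP6V0B and ATP6V0E2) had all sh-IGF2BP3 libraries above all controls, and 1 (ATP6AP2) had them below, where 13.2% and 11% of all genes tested did so. For each of these 3 genes a two-sided exact permutation test gave p = 0.1, the smallest value that 3 against 3 libraries allow. Groups that do not overlap always give this value, so the test adds nothing to the count of such genes. The count of 0 called genes rested on sh-NC 1. Without that library edgeR called 3 of the 8 higher and none lower, while it called 10% of all genes higher and 5.67% lower. These were ATP6V0B (log2 fold change 0.92, edgeR adjusted p = 0.00829), ATP6V0D1 (0.79, edgeR adjusted p = 0.0157) and ATP6V0E2 (0.76, edgeR adjusted p = 0.0319). The median of the 8 genes was then 0.31.

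Levels of different genes were compared per length, on the deposited FPKM values. In sh-NC libraries ATP6V0E1 was highest, at 30.7 ± 0.77 FPKM (SD, n = 3), followed by ATP6AP1 at 16.5 ± 3.49 and ATP6V0B at 13.8 ± 3.12 FPKM, whose ranges overlapped. ATP6AP2 at 8.63 ± 0.83, ATP6V0A1 at 7.16 ± 1.40 and ATP6V0D1 at 5.64 ± 1.66 FPKM came next, each overlapping its neighbour. ATP6V0E2 at 3.35 ± 0.32 and ATP6V0A2 at 2.81 ± 0.21 FPKM did not overlap. ATP6V0C came last, at 1.68, 0.18 and 0.16 FPKM.

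In sh-IGF2BP3 libraries the same genes stood at both ends of the order of the other 8. ATP6V0E1 was again highest at 32.8 ± 4.55 FPKM, ATP6V0B was at 21.0 ± 3.28 and ATP6AP1 at 17.6 ± 0.90 FPKM, and ATP6V0A2 was lowest at 2.53 ± 0.25 FPKM. ATP6V0C was at 29.2 and 24.8 FPKM in sh-IGF2BP3 1 and 2 and at 0.62 FPKM in sh-IGF2BP3 3. It thus ranked as number 2 of the 9 genes in the former pair of libraries, and as number 9 in the other 4. The rank of ATP6V0C is uncertain in all libraries, because its counts depend on how reads in its shared exons were counted. The lengths behind the FPKM values ran from 1416 to 17214 bases, which count all annotated exons of a gene, so a gene with long rare exons has a lower FPKM than its main transcript would give.

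**Figure D3:**
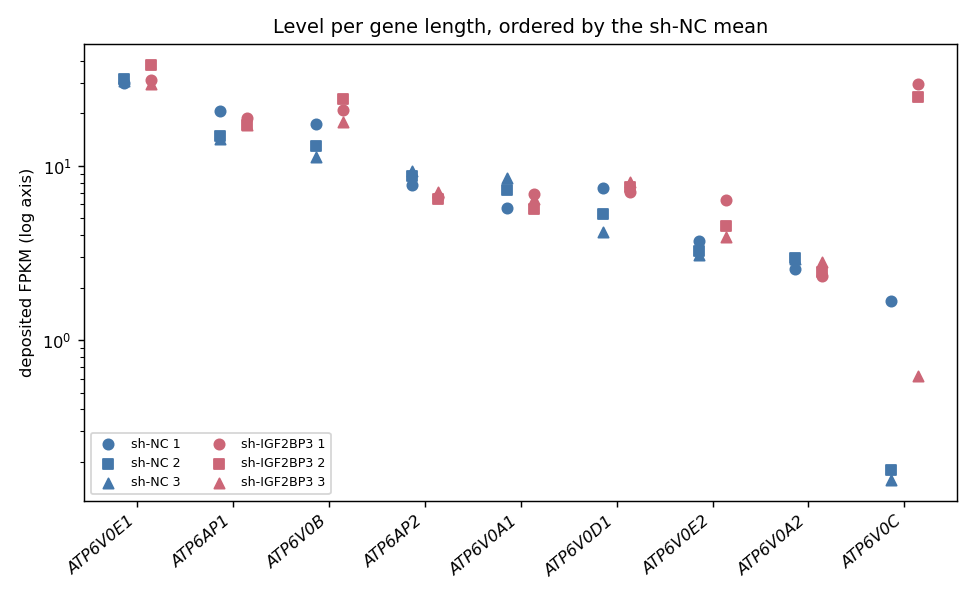
Deposited FPKM values (log axis) of the 9 genes in each library, ordered by the mean of the sh-NC libraries; blue points are sh-NC, red points sh-IGF2BP3, and shapes mark the libraries. ATP6V0C spans from 0.16 to 29.2 FPKM, while the 6 points of each other gene lie close together.

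The exon overlap of ATP6V0C was not shared by the other members. Over all its exons in GENCODE 29, 72.1% of the bases of ATP6V0C also lay in an exon of another gene on the same strand, against 0% to 6.90% in the other 8. Those exons held 1498 bases, while the length behind its deposited FPKM was 1416 bases. Of 13123 tested protein-coding genes with annotation, 83.8% shared no exon base in this way, and 78 (0.594%) shared as much as ATP6V0C or more. Its GC content was 63.6%, against 42.7% to 58.1% in the other 8 genes.

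The genes whose profile over the 6 libraries lay nearest to that of ATP6V0C were found by the root mean square difference of centred log2 CPM. They were SLC25A32, a mitochondrial folate carrier (difference 1.37), SRXN1, the sulfiredoxin (1.52), MGAT2, an N-glycan enzyme of the Golgi (1.53), GABARAP, an ATG8 protein of autophagosomes (1.55), and RAB5IF (1.60). SLC25A32 was at 1.92, 0.537 and 0.664 CPM in sh-NC and 8.18, 9.81 and 1.36 CPM in sh-IGF2BP3 libraries. SRXN1 was at 4.46, 2.69 and 2.71 CPM against 31.2, 27.5 and 5.74 CPM. The likeness to ATP6V0C was fixed by the way these genes were chosen. In SRXN1, GABARAP and RAB5IF sh-IGF2BP3 3 was also above every control, at 1.29-fold, 1.66-fold and 1.02-fold the highest. In SLC25A32 and MGAT2 it was not, at 0.71 and 0.81 of the highest control. The share of exon bases that also belong to another gene on the same strand was 69.7% in SLC25A32, 85.0% in SRXN1, 30.5% in GABARAP and 39.3% in RAB5IF, and 0% in MGAT2. The nearest of the V0 genes was ATP6V0B, with a difference of 2.51, at place 1279 among all genes tested. ATP6AP2 was the farthest, with a difference of 3.03 at place 11153. The log2 values were centred but not scaled, so these differences reflect the size of a gene's changes as well as their pattern.

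The remaining subunits of the pump formed a list of 17 genes, of which 15 were tested. They are the V1 sector, whose A and B subunits hydrolyse ATP, together with RNASEK and the V0 isoforms TCIRG1, ATP6V0A4 and ATP6V0D2. By edgeR 0 of 15 were called, where 0% of all genes tested were. Of the 15 genes 8 were above and 7 below 0, beside 49% of all genes above 0. Their median log2 fold change was 0.06, beside −0.01 over all genes tested. The catalytic ATP6V1A was at 117.3, 116.7 and 111.4 CPM in sh-NC and 82.4, 89.9 and 115.3 CPM in sh-IGF2BP3 libraries (log2 fold change −0.26 ± 0.19). Its partner ATP6V1B2 differed by −0.15 ± 0.19. ATP6V0A4 differed by −0.21 ± 0.51 and ATP6V1B1, the other B isoform, by 0.87 ± 0.57, both at under 1 CPM.

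ATP6V1F, a small subunit of the central stalk, had the highest log2 fold change of the 15. It was at 18.6, 14.5 and 11.4 CPM in sh-NC and 37.3, 40.7 and 20.2 CPM in sh-IGF2BP3 libraries. All 3 sh-IGF2BP3 values were above the controls, with sh-IGF2BP3 3 the lowest of them. The log2 fold change was 1.14 ± 0.27 (edgeR adjusted p = 0.103), and DESeq2 called it higher (adjusted p = 0.0119). DESeq2 tested 12 of the 15 genes, and this was its 1 call, beside 4.21% of all genes it tested called higher. RNASEK, found in the membrane sector of the mammalian pump, was at 2.09, 1.12 and 1.48 CPM against 3.72, 3.47 and 2.10 CPM (log2 fold change 0.99 ± 0.38, edgeR adjusted p = 0.156), and 36.9% of its exon bases were shared with another gene. ATP6V1F and RNASEK were the 2 of 15 listed genes whose sh-IGF2BP3 values all lay above the controls, a share near the 13.2% of all genes tested.

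**Figure D4:**
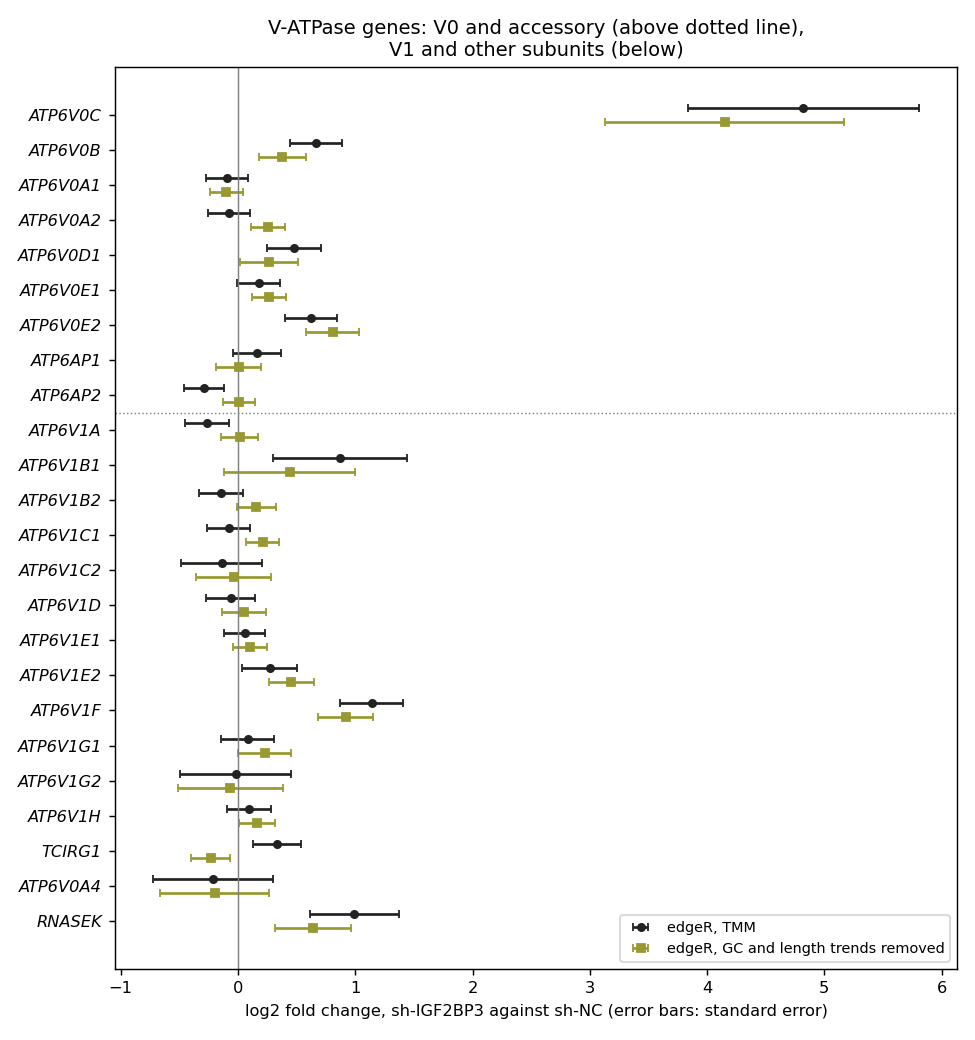
Log2 fold change of sh-IGF2BP3 against sh-NC (x axis) for the 9 V0 and accessory genes and 15 V1 and other subunits, by edgeR with TMM (black) and with each library's trends with GC content and gene length removed (olive); bars are standard errors (n = 3 libraries each). ATP6V0C stands at 4.82 and 4.15, ATP6V1F at 1.14 and 0.92, and most others lie near 0.

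Among 12 assembly factors and regulators of the pump that were tested, 5 were above and 7 below 0, beside 49% of all genes above 0. The median was −0.36. By edgeR 0 were called, where 0% of all genes tested were, while DESeq2 called DMXL2 alone, lower. The 1 call of DESeq2 stands beside 1.02% of all genes that it called lower. At an unadjusted p under 0.05, 1 of the 12 was higher and 6 were lower, beside 13.6% and 8.54% of all genes. DMXL2 and DMXL1, the rabconnectins that help V1 rejoin V0, differed by −0.73 ± 0.21 (edgeR adjusted p = 0.108; DESeq2 adjusted p = 0.0417) and −0.65 ± 0.20 (edgeR adjusted p = 0.116; DESeq2 adjusted p = 0.0536). DMXL2 was at 55.5, 81.2 and 97.8 CPM in sh-NC and 45.8, 45.6 and 49.9 CPM in sh-IGF2BP3 libraries. MITF, a factor of the family that drives lysosomal genes, differed by −0.75 ± 0.35, and its relative TFEB by 0.33 ± 0.33. CCDC115, an assembly factor, differed by 0.33 ± 0.22, and ROGDI, which acts with the rabconnectins, by 0.90 ± 0.32. With the trends with GC content and gene length removed the median of the 12 was −0.07, and DMXL2 differed by −0.33 ± 0.16, DMXL1 by −0.23 ± 0.14, MITF by −0.43 ± 0.32 and ROGDI by 0.40 ± 0.26.

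Ragulator anchors the Rag GTPases to the lysosome beside the pump. Of 10 genes of these complexes, 5 were above and 5 below 0, beside 49% of all genes above 0. By edgeR 0 of the 10 were called, where 0% of all genes tested were. DESeq2 called LAMTOR4 higher (log2 fold change 1.01 ± 0.23 by edgeR; DESeq2 adjusted p = 0.00765), LAMTOR5 higher (0.82 ± 0.24; DESeq2 adjusted p = 0.0391) and the lysosomal arginine sensor SLC38A9 lower (−0.75 ± 0.23; DESeq2 adjusted p = 0.0375). These are 2 of 10 genes higher and 1 lower, beside 4.21% and 1.02% of all genes that DESeq2 called. With the trends with GC content and gene length removed, LAMTOR4 was at 0.56 ± 0.18, LAMTOR5 at 0.83 ± 0.23, SLC38A9 at −0.34 ± 0.17 and RRAGD at −0.30 ± 0.19, none called by edgeR. LAMTOR4 was at 15.9, 17.0 and 14.1 CPM in sh-NC and 32.2, 39.2 and 23.5 CPM in sh-IGF2BP3 libraries. LAMTOR2 differed by 0.76 ± 0.28, LAMTOR3 by −0.18 ± 0.23 and RRAGD by −0.55 ± 0.22, none called by edgeR or DESeq2. The order seen in ATP6V0C, with sh-IGF2BP3 1 and 2 but not 3 above every control, was met by 4 of these 10 genes, 3 of the 12 assembly and regulatory genes and 2 of the 15 V1 and other subunits (TCIRG1 and ATP6V1B1), beside 10.7% of all genes. In these genes the lower of the pair exceeded the highest control by far less than in ATP6V0C, from 1.02-fold in TFEB to 1.61-fold in LAMTOR5. This tally leaves out ATP6V1F, RNASEK, ROGDI and LAMTOR4, where sh-IGF2BP3 3 also lay above every control, from 1.01-fold in RNASEK to 1.38-fold in LAMTOR4. There the lower of the pair stood 2.00-fold, 1.66-fold, 2.07-fold and 1.89-fold above the highest control.

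Fold changes followed GC content across all genes, with a Spearman correlation of 0.61 between log2 fold change and GC content over 16236 genes, which are not independent replicates. With each library's trends with GC content and gene length removed, ATP6V0C was at 4.15, ATP6V0B at 0.38 ± 0.20, ATP6V0D1 at 0.27 ± 0.25 and ATP6V0E2 at 0.81 ± 0.23. ATP6AP2 came to 0.00 ± 0.14 and ATP6V0A2 to 0.26 ± 0.15, so that neither kept its sign. The median of the 8 genes was then 0.26, beside 0.01 over all genes tested. In this fit edgeR called 0 of the 8 genes and also 0 of all 16753 genes tested.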

How the data were processed

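Total RNA of 6 HCT116 libraries was sequenced by the authors after TruSeq library preparation. The submitters' processing notes name CASAVA and GRCh38; the aligner, the counting tool and the use of strand are not given in the sources used here. The authors deposited raw counts per gene, without normalization, and FPKM values, which are the counts divided by the library total and a gene length equal in all libraries.

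The count test was edgeR 4.0.16 under R 4.3.3 (filterByExpr, TMM, quasi-likelihood test, Benjamini-Hochberg adjustment over all 16753 genes tested), and genes were called at an adjusted p under 0.05 and a change over 1.5-fold, the thresholds of the study. CPM values are counts over TMM-scaled library sizes. The alternatives were DESeq2 1.42.0, limma 3.58.1 on log2(FPKM + 1) or log2(FPKM + 0.1) where the mean FPKM reached 1, or unfiltered, RLE or upper-quartile factors, all genes with a count, only genes with 10 or more counts throughout, a replicate block, leaving out 1 library at a time, any fold change, removal of trends with GC content and length (splines, 5 df; GC content known for 96.9% of genes), and sums of ATP6V0C with overlapping genes and pseudogenes. DESeq2 was first run on the genes kept by edgeR's filter and then, after that output was seen, on all genes with its own filtering, which is the fit reported; both are given. The scripts were tested on simulated data.

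Exon overlaps and junctions came from GENCODE 29. The members and lists were chosen with earlier results of these data known. Named genes were the 9 members, IGF2BP3, the 3 highest and 3 lowest of each other list and any called there, overlapping genes, pseudogenes with at least 10 counts, and the 5 nearest profiles. The count of called V0 genes leaves out ATP6V0C. Libraries of a group differed by 16.6 to 52.3 times the counting variance, so none was a duplicate.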

Additional observations from a re-analysis of the deposited data

How the results depend on the processing

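No V0 or accessory gene was called under any alternative but 1: the count ran from 0 to 3 when 1 library was left out, with 3 without sh-NC 1. The count of V1 and other subunits was 1 under DESeq2, on all genes or on the genes edgeR tested, and 1 with no filter on low counts (ATP6V1F), and 0 to 2 with 1 library left out. For assembly and regulatory factors it was 1 under DESeq2 on all genes, 2 under DESeq2 on the genes edgeR tested (DMXL1 joins at an adjusted p of 0.0482), and 0 to 4 with 1 library left out. For Ragulator and Rag genes it was 3 under both DESeq2 fits, 2 with no filter, and 0 to 5 with 1 library left out. The high ends all came without sh-NC 1, where edgeR called 1739 genes higher and 985 lower among all genes, against 0 with it. Without sh-IGF2BP3 3 it called 214 higher and 14 lower, and with no filter 687 and 150. DESeq2 called 560 higher and 136 lower on all genes, and 555 and 150 on the genes edgeR tested. The causes were not tested.

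The median of the 8 V0 genes ran from 0.055 to 0.309 with 1 library left out. That of V1 and other subunits was 0.16 with GC and length trends removed, 0.17 with the replicate block as well, and −0.018 to 0.163 with 1 library left out. With GC and length trends removed, without and with the replicate block, the sign turned for ATP6V0A2 (0.26 and 0.26), ATP6AP2 (0.0050 and 0.0071), ATP6V1A (0.0127 and 0.0129), ATP6V1B2 (0.157 and 0.168) and LAMTOR3 (0.0761 and 0.0632), none called either way. With 1 library left out it turned for ATP6V0A2 (−0.171 to 0.0050), ATP6AP1 (−0.0024 to 0.411) and ATP6V0A4 (−0.416 to 0.0155). The log2 fold change of ATP6V0C stayed above 0 under every alternative that kept it, from 2.81 with limma to 6.82 without sh-NC 1. It has no value at 10 counts in every library. As the values of ATP6V0C chose the topic, this range is a description and no support for its rise. The study speaks of 3 pairs of control and knockdown cells, without saying how they were paired. The labels number the replicates 1 to 3 in both groups. The deviations of same-numbered libraries correlated at −0.284, −0.186 and −0.043, so the main fit did not take the numbers to pair them. With the replicate block the count of called V0 genes was 0 and their median 0.18.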
